A study of Mus musculus with 59 samples.

Results

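SB-204990 (SB), an inhibitor of ATP-citrate lyase, was compared with no treatment (Ut) in AML12 cells that had received a control siRNA (siC). AML12 is an immortalised hepatocyte line from mouse liver. The comparison was defined by the labels alone and took 6 of the 59 libraries of the series, 3 SB libraries (numbers 4, 5 and 81) and 3 Ut libraries (numbers 1, 2 and 13). SB cells received 10 µM SB for 16 h, starting 1 day after the control siRNA, and Ut cells received the control siRNA and no inhibitor. Both groups grew in medium with fetal bovine serum, an insulin supplement and dexamethasone, so the comparison holds for cells under insulin and glucocorticoid. Nothing in the labels ties the libraries of 1 group to separate cultures. The p-values measure the spread between libraries within groups, taken over all 8 AML12 groups, and that spread may be technical.

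ATP-citrate lyase, encoded by Acly, splits citrate exported from mitochondria into cytosolic acetyl-CoA and oxaloacetate. That acetyl-CoA feeds the synthesis of fatty acids and of cholesterol and the acetylation of proteins, histones included. When sterols run low in the endoplasmic reticulum, the factor SREBP2 is released and switches on the genes of cholesterol synthesis and uptake. When amino acids run short or the endoplasmic reticulum is stressed, the factor ATF4 switches on genes of amino acid synthesis and transport. The comparison asks which transcripts differ when the enzyme is inhibited in cells that still express it.

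Promoters of 3 genes are shown because they carry the letters of known response elements. The RefSeq sequences (GRCm38.p6) run 5′ to 3′ over 300 bases around the start of the gene. Capitals in Hmgcs1 (chr13:119690101-119690400, plus strand) mark TCACCCCAC, a form of the sterol regulatory element, and capitals in Asns (chr6:7693160-7693459, minus strand) and Chac1 (chr2:119350992-119351291, plus strand) mark TGATGNAA on either strand, the core of the amino acid response element.
Hmgcs1: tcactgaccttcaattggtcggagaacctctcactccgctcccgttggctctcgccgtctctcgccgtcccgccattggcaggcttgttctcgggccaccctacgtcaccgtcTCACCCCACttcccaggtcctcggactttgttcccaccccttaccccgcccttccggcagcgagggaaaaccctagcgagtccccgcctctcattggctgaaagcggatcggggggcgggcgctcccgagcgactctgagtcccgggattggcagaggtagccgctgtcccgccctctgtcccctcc
Asns: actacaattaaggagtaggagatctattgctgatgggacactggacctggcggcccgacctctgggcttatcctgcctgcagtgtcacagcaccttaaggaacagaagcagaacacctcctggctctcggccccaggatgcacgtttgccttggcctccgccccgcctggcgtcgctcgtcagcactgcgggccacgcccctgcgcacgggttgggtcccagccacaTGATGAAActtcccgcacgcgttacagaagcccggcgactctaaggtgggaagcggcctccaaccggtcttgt
Chac1: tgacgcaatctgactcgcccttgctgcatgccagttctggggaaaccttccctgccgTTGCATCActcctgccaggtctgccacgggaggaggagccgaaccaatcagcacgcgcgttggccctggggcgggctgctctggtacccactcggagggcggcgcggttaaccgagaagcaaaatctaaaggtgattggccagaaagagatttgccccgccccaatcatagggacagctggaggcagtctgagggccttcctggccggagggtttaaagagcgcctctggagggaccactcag
Searched on both strands, TCACCCCAC was in 1 of 14 cholesterol synthesis promoters with a sequence and in 0.522% of 27025 promoters. TGATGNAA was in 7 of 22 promoters of the ATF4 list, those of Trib3, Asns, Chac1, Slc7a11, Pycr1, Atf3 and Fgf21, and in 4.06% of all promoters. A match describes the letters of the window and is no evidence of binding.

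Depth, estimated as the sum of a library's values over its most frequent value below 2, was 13.01 to 16.3 M reads in SB and 13.5 to 15.5 M in Ut. Libraries fell into clusters that crossed the treatments. SB 4 was closest to Ut 1 (Pearson's r across genes 0.989) and SB 5 to Ut 2 (0.990), while r among the SB libraries was 0.961 to 0.963. SB 81 was closest to a hydroxycitrate library with a number in the same series, and no Ut library of siC cells has a number in that series, so for SB 81 the series and the treatment cannot be told apart. Clustering of the 24 AML12 libraries gave 3 clusters of 8 that crossed the groups, with SB 4 and Ut 1 in the first, SB 5, Ut 2 and Ut 13 in the second and SB 81 in the third. The third cluster held every AML12 library numbered 81 to 87 and library 15. Libraries 84 and 15 came from cells given siRNA against Acly and no inhibitor. Ut 13 also stood apart in Cyp1a1, a target of the aryl hydrocarbon receptor, at 917 against 195 in Ut 1 and 200.2 in Ut 2. In siC cells given bempedoic acid, Cyp1a1 was at 1255 and 1075 in libraries 10 and 83 and at 236 in library 11. It was at 678 to 1095 with bempedoic acid and siRNA against Acly, and at most 495 in the remaining AML12 libraries. Ut 13 was kept under its label, and the cause of its value was not tested. Several lists below are therefore also given as SB 4 minus Ut 1, SB 5 minus Ut 2, SB 5 minus Ut 13 and SB 81 minus the mean of the Ut libraries. These 4 differences share libraries and are not independent. SB 81 differed most, with 1289 genes beyond a log2 difference of 1, against 205 to 328 genes for the other differences.

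Several hepatocyte markers were abundant in every library, but Apoa2 was at 4.37 or lower in each, and several markers varied between libraries. The summed value of the 9 markers was 145060, 106443 and 112746 in SB and 132773, 108932 and 108584 in Ut. Trf and the keratins Krt8 and Krt18 made up most of each sum, so similar sums do not mean similar values of the other markers. Alb, which encodes serum albumin, was at 12099, 2214 and 1027 in SB 4, 5 and 81, against 11853, 2963 and 5522 in Ut 1, 2 and 13. Trf, transferrin, was at 67117, 42225 and 24744 in SB, against 60847, 43292 and 44586 in Ut. Both groups overlapped for these genes, and SB 81 was lowest. The keratins ran the other way, Krt8 with 26313, 29887 and 46178 in SB against 23306, 28200 and 24961 in Ut, and Krt18 with 20459, 21012 and 34940 in SB against 17559, 19893 and 18406 in Ut, where the groups did not overlap. Hnf4a, the nuclear receptor that maintains hepatocyte identity, was chosen after its values were seen and was at 4819, 4609 and 3776 in SB, against 5252, 5328 and 5259 in Ut. Its log2 fold change was -0.27 (SE 0.16). The median of the 8 tested markers was -0.50 on the log2 scale, and it was 0.04 without SB 81, -0.18 without Ut 1, -0.29 without SB 5 and -0.98 without SB 4. By library the median was 0.09, -0.25, -0.39 and -1.56. Of the other cell types looked for, markers of fibroblasts or stellate cells summed to 16.3 to 57.6 in SB and 21.1 to 48.3 in Ut with Col1a2, Col3a1 and Lum at 0, and markers of macrophages summed to 12.5 to 34.3 in SB and 16.99 to 30.6 in Ut with Adgre1 at 0. Endothelial markers summed to at most 2.62, with Cdh5 and Kdr at 0. The bile duct markers, 4 of 5 tested, summed to 22540 to 29104 in SB and 26649 to 30658 in Ut.

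Acly itself did not differ detectably. Its value was 2576, 3860 and 3202 in SB 4, 5 and 81, against 2750, 3804 and 3263 in Ut 1, 2 and 13, a mean of 3212 ± 642 in SB and 3273 ± 527 in Ut (SD, n = 3 each). The groups overlapped fully, and the log2 fold change was -0.03 (SE 0.48). The gene lies on chromosome 11 of GRCm38 from 100476353 to 100528000, on the minus strand. In siAcly cells, which received siRNA against Acly, its value was 215 to 599 over 12 libraries. The library labelled siC Bemp 11 (siC cells given bempedoic acid) was at 404, inside that range. Its nearest library was siAcly SB 16 (r 0.990), and it was kept in the fit under its label. The other siC Bemp libraries were at 2947 and 2883. The SE of Acly given above pools the spread of all 8 AML12 groups, so siC Bemp 11 adds to it.

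Across all genes no difference passed the test. Of 12296 genes tested with limma, 0 (0%) had an adjusted p below 0.05, and the smallest adjusted p was 1.00 (so it was 1.00 for each gene named here). At an unadjusted p below 0.05 there were 70 genes, 0.569% of those tested, where 615 would be expected by chance. The fit thus called fewer genes than expected by chance, so a count of 0 is no evidence that SB had no effect. The median log2 fold change was -0.01 and its SD over genes was 0.34. The 3 SB values lay above the 3 Ut values for 410 genes (3.33%) and below for 311 genes (2.53%). At the study's threshold, an unadjusted p up to 0.05 with a change of 1 or more on the log2 scale, 9 genes were higher (0.0732%) and 11 lower (0.0895%), a count that went to 9 without SB 81, to 115 without SB 5 and to 58 without Ut 1.

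**Figure D1:**
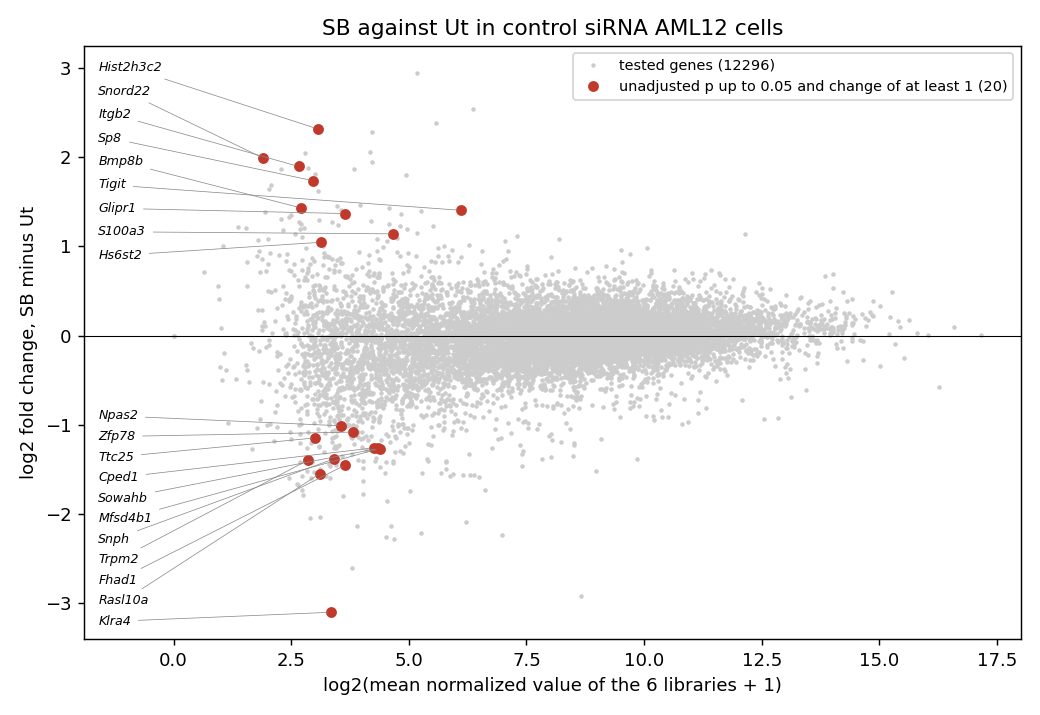
Log2 fold change, SB minus Ut, of each tested gene against log2 of its mean normalized value plus 1 over the 6 libraries. The 20 genes at the study's threshold are red and named. The genes other than Tigit have a mean of at most 24.4 over the libraries, and none passed the adjusted test.

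Most of these 20 genes had low values. Among the 9 higher in SB, Bmp8b, a bone morphogenetic protein, was at 9.63, 8.56 and 6.90 in SB against 4.49, 1.72 and 1.75 in Ut. Itgb2, an integrin subunit of leukocytes, was at 5.68, 7.40 and 12.9 in SB against 2.86, 0 and 2.93 in Ut. S100a3, a calcium-binding protein, was at 31.2, 25.8 and 45.3 in SB against 18.5, 12.2 and 13.6 in Ut, with a log2 fold change of 1.14 (SE 0.43). For these 3 genes and for Glipr1 (log2 fold change 1.37), Hs6st2 (1.05), a heparan sulfate 6-O-sulfotransferase, and Hist2h3c2 (2.32) the groups did not overlap. They overlapped for Tigit (1.40), an immune receptor at 92.1, 46.7 and 152 in SB against 68.9, 35.2 and 13.5 in Ut, for Sp8 (1.73), a zinc finger factor, and for Snord22 (1.99). Hist2h3c2 has near-identical copies and a transcript that mRNA libraries take up poorly, and Snord22 lies within a host gene, so both values are uncertain.

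Among the 11 lower in SB, Npas2, the partner of BMAL1 that can replace CLOCK, was at 5.87, 7.67 and 7.02 in SB 4, 5 and 81 against 12.8, 14.5 and 17.3 in Ut 1, 2 and 13. Its log2 fold change was -1.01 (SE 0.41), and all 4 library differences lay between -1.08 and -0.83. Fhad1, a forkhead-associated domain protein, had the smallest p of the 20 (0.00543) at 8.20, 4.32 and 4.92 in SB against 19.7, 18.9 and 13.3 in Ut. Cped1 was at 17.1, 6.77 and 7.37 in SB against 38.7, 17.6 and 20.8 in Ut. The groups did not overlap for these genes, nor for Klra4 (log2 fold change -3.10), Snph (-1.38), Trpm2 (-1.40), Ttc25 (-1.15) and Mfsd4b1 (-1.27). Klra4 belongs to a family of closely similar receptor genes, which could share reads. The groups overlapped for Rasl10a (-1.54), Sowahb (-1.26) and Zfp78 (-1.08).

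Among more abundant genes whose groups did not overlap, SB 81 was the SB library farthest from Ut for each of the 20 at either end. The hydroxycitrate library numbered 82, of the same number series, lay beyond all 3 Ut values on the same side for each of them. It was at 1730 for Acsbg1 and 36.3 for Abca1, where SB 81 was at 1678 and 57.8. No Ut library of siC cells is in that series, so series and treatment cannot be told apart for these SB 81 values. The 10 highest log2 fold changes among genes with a mean of at least 50 ran between 0.60 and 0.95. Rmi2, a subunit of the complex that resolves recombined DNA, was at 72.2, 55.7 and 110.2 in SB against 42.1, 34.5 and 40.6 in Ut (log2 fold change 0.95, SE 0.43). Acsbg1, an acyl-CoA synthetase of long-chain fatty acids, was at 633, 613 and 1678 in SB against 565, 468 and 443 in Ut (0.82). E2f7 (0.78), a repressor of the cell cycle factors E2F, Tuba1a (0.70), a tubulin, Ajuba (0.61), a scaffold of cell junctions, Slc4a11 (0.94), Il34 (0.83), Klf16 (0.64) and Prss23 (0.61) were among them. The 10 lowest ran between -1.56 and -0.87. Cyp4f14, a fatty acid hydroxylase, was at 81.3, 59.5 and 5.05 in SB against 96.2, 88.7 and 88.1 in Ut (-1.56, SE 1.06). Akr1b7 (-1.51), Abca8b (-1.19), Ugt2b5 (-1.15), a glucuronosyltransferase, Ifit1 (-1.12), Abca1 (-0.98), Dock11 (-0.94), Abat (-0.89), which breaks down GABA, and Kdm7a (-0.87), a histone demethylase, were among them.

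**Figure D2:**
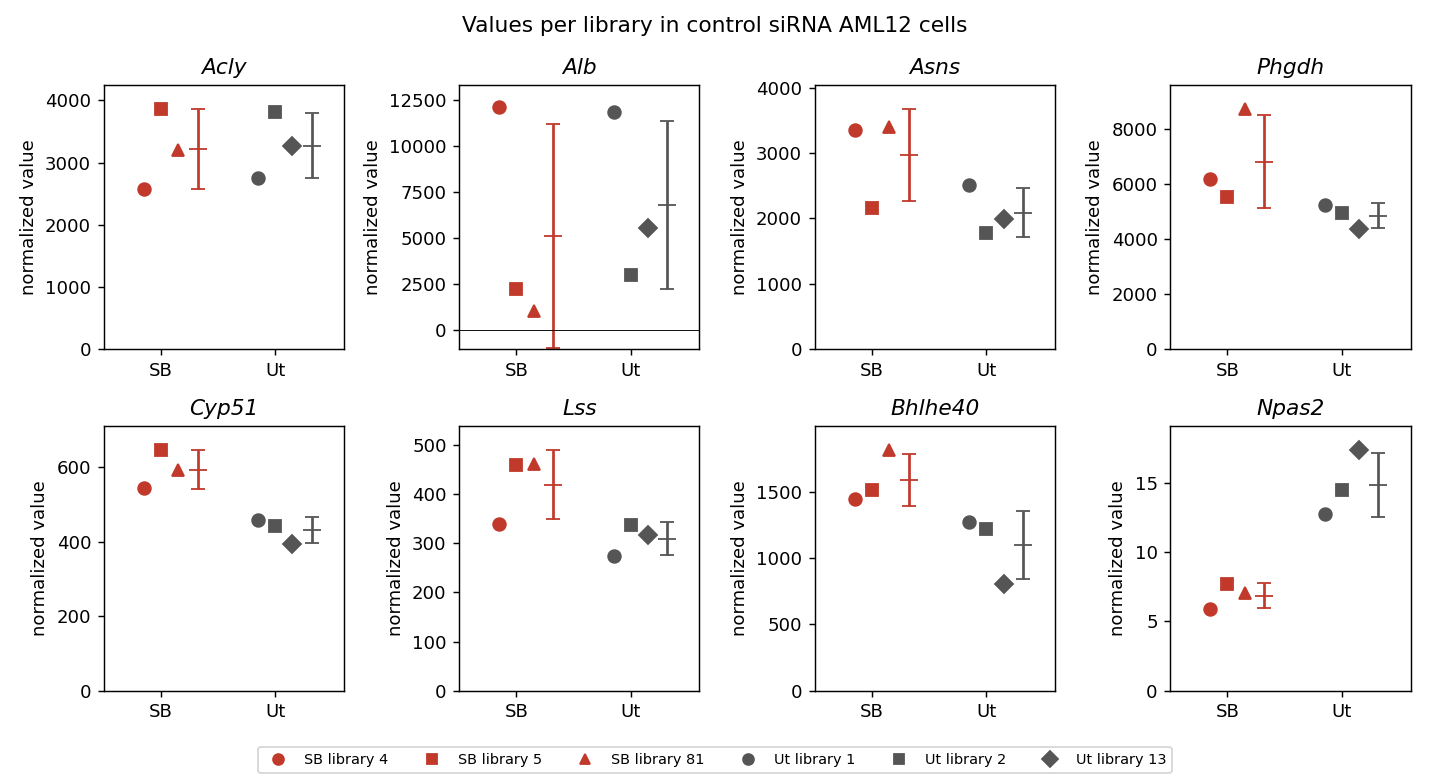
Normalized values of 8 genes in the 3 SB libraries (red, left) and the 3 Ut libraries (grey, right) of control siRNA AML12 cells, with the mean and SD of each group beside the points. Acly overlaps between the groups, Npas2 is at 5.87 to 7.67 in SB and 12.8 to 17.3 in Ut, and Alb varies more between libraries than between groups.

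Enzymes that supply and use cytosolic acetyl-CoA showed no common direction. Of 23 genes of acetyl-CoA and citrate supply 21 were tested, 9 were higher and 12 lower, with a median log2 fold change of -0.02, which leaving out 1 library moved to between -0.09 (without SB 5) and 0.03 (without SB 81). Me1, malic enzyme, was at 7084, 6265 and 5441 in SB against 6760, 6101 and 6043 in Ut, and Mdh2, mitochondrial malate dehydrogenase, at 5419, 5596 and 6776 in SB against 4924, 5636 and 4948 in Ut. The list ran from Pdk1 (-0.59) to Pdk4 (0.35), both kinases that restrain pyruvate dehydrogenase. All 24 genes of fatty acid synthesis and storage were tested, 9 higher and 15 lower, with a median of -0.06, which leaving out 1 library moved to between -0.18 (without SB 5) and 0.04 (without SB 81). Fasn, fatty acid synthase, was at 3310, 8274 and 6659 in SB against 4082, 7977 and 5439 in Ut (0.01), and Scd2, a stearoyl-CoA desaturase, at 9554, 18573 and 9488 in SB against 10448, 17984 and 13461 in Ut (-0.20). The highest member was Plin2, which coats lipid droplets, at 3533, 4206 and 5575 in SB against 3038, 3572 and 3668 in Ut (log2 fold change 0.35, SE 0.26), and the lowest was Fabp1 (-1.12, SE 2.54). None of the genes of either list had an unadjusted p below 0.05.

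Genes of cholesterol synthesis had slightly higher values in SB, without passing a test. All 19 were tested and 17 had a positive log2 fold change, with a median of 0.23, against -0.01 over all genes. With library cluster as covariate the median was 0.41. The median was 0.19 for SB 4 minus Ut 1, 0.23 for SB 5 minus Ut 2, 0.43 for SB 5 minus Ut 13 and 0.24 for SB 81 minus the mean of Ut. For 12 of the 19 genes all 4 differences were positive, which was so for 12.9% of all genes (all 4 were negative for 11%). The SB values lay above all Ut values for 4 of the 19, against 3.33% of all genes tested. These were Cyp51, Lss, Nsdhl and Hmgcs1, named after their values were seen. Cyp51, which removes a methyl group from lanosterol, was at 544, 646 and 593 in SB 4, 5 and 81 against 459, 442 and 393 in Ut 1, 2 and 13. Its log2 fold change was 0.46 (SE 0.60). Lss, which closes the ring of lanosterol, was at 339, 459 and 461 in SB against 274, 338 and 317 in Ut (0.43, SE 0.57). Nsdhl, which acts after it, was at 484, 545 and 528 in SB against 401, 465 and 393 in Ut. Hmgcs1, the HMG-CoA synthase whose promoter holds TCACCCCAC, was at 564, 619 and 570 in SB against 526, 460 and 511 in Ut (0.23, SE 0.43). The fitted SEs are larger than the spread among these 6 libraries because the fit shares the spread of all 8 AML12 groups. Ebp, a sterol isomerase and one of the 2 most abundant members, was at 3854, 3879 and 4487 in SB against 3368, 3881 and 3699 in Ut (0.16). The list ran from Tm7sf2 (-0.13) to Hsd17b7 (0.52), and 0 of its genes had an unadjusted p below 0.05.

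Around SREBP2, 11 of 13 genes were tested and 8 had a positive log2 fold change, with a median of 0.12. The direction of that median turned without Ut 1 (-0.04), and it was 0.24 without SB 4, 0.04 without SB 5, 0.07 without SB 81 and 0.06 without Ut 13. Insig1, which holds SREBP2 back and was named after its values were seen, was the only member with SB above all Ut values, at 252, 235 and 263 in SB against 178, 211 and 160 in Ut (0.46). Srebf2, the gene of SREBP2, was at 2862, 5130 and 4929 in SB against 2963, 4813 and 3415 in Ut (0.19), and Scap, its escort, at 1240, 1735 and 1954 in SB against 1369, 1838 and 1506 in Ut (0.05). Abca1, the cholesterol exporter, had SB below all Ut values, at 164, 178 and 57.8 in SB against 255, 212 and 242 in Ut (-0.98, SE 0.72).

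**Figure D3:**
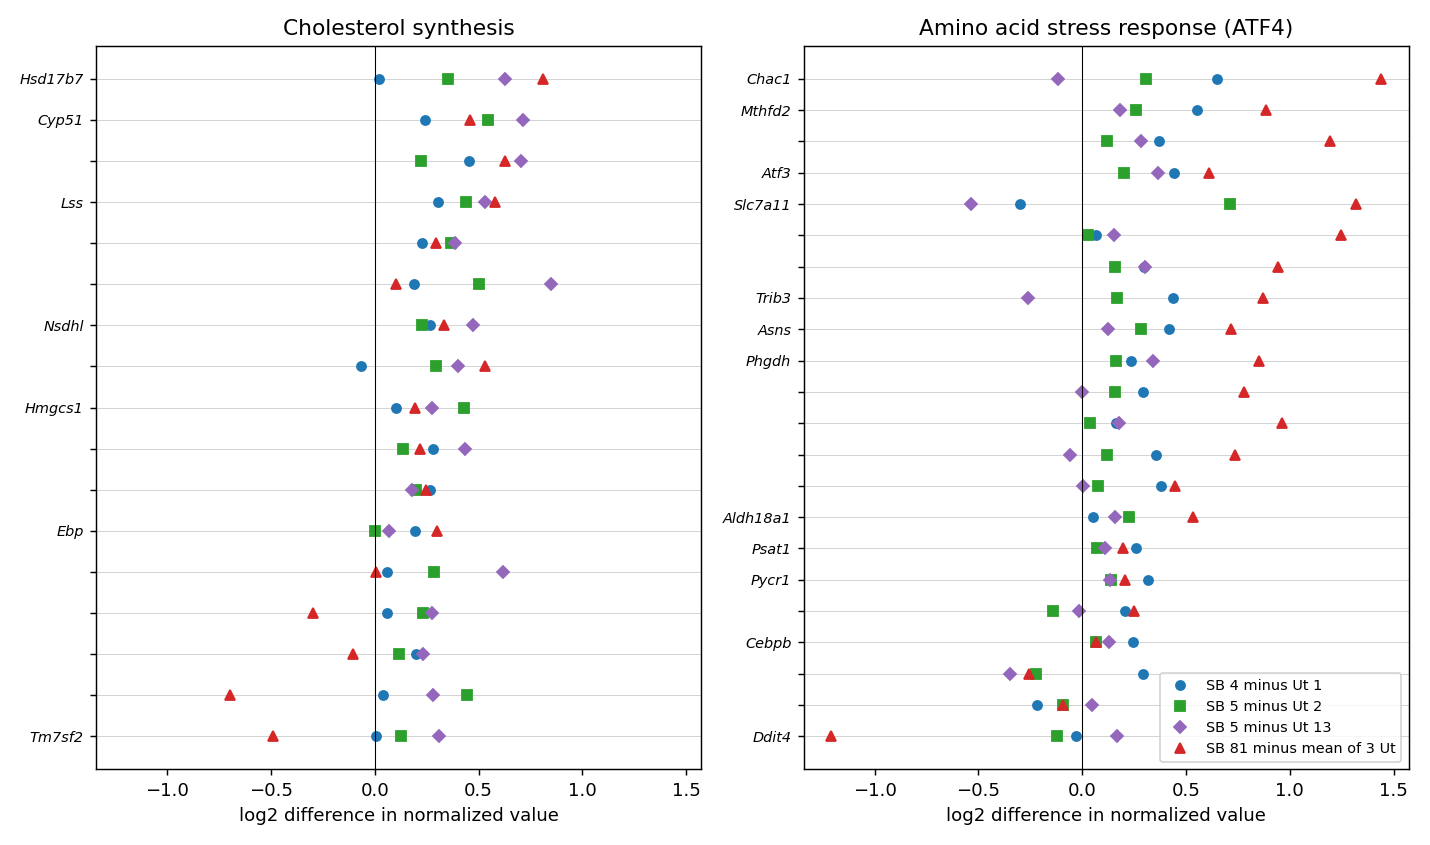
Log2 difference of 17 of the 19 tested genes of cholesterol synthesis (left) and of the 22 tested genes of the ATF4 list (right), 1 row a gene with the genes named in the text labelled, for SB 4 minus Ut 1, SB 5 minus Ut 2, SB 5 minus Ut 13 and SB 81 minus the mean of the 3 Ut libraries. Most cholesterol genes lie above 0 in each difference, and the ATF4 genes lie farthest out in SB 81.

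Genes of the ATF4 response to amino acid shortage also ran higher in SB, most in SB 81. Of 23 genes 22 were tested and 19 had a positive log2 fold change, with a median of 0.45, which was 0.22 without SB 81, 0.28 without Ut 2, 0.68 without SB 5 and 0.23 with library cluster as covariate. The median was 0.29, 0.13, 0.13 and 0.73 in the 4 library differences. Asns, asparagine synthetase, with TGATGNAA in its promoter, was the only member with an unadjusted p below 0.05 and was named after its values were seen. It was at 3351, 2163 and 3402 in SB 4, 5 and 81 against 2507, 1776 and 1988 in Ut 1, 2 and 13, a mean of 2972 ± 701 in SB and 2090 ± 376 in Ut (SD, n = 3 each). SB 5 lay below Ut 1, and the log2 fold change was 0.49 (SE 0.22). SB lay above all Ut values for 4 of the 22 (3.33% of all genes tested), Phgdh, Psat1, Aldh18a1 and Cebpb, of which Aldh18a1 and Cebpb, like Mthfd2, were named after their values were seen. Phgdh, the first enzyme of serine synthesis, was at 6172, 5527 and 8715 in SB against 5247, 4947 and 4358 in Ut (0.46, SE 0.24), and Psat1, the next enzyme, at 7992, 6747 and 7397 in SB against 6678, 6418 and 6250 in Ut (0.19, SE 0.15). Aldh18a1, of proline synthesis, was at 1562, 1663 and 2129 in SB against 1505, 1425 and 1490 in Ut, and Cebpb at 3221, 2868 and 2818 in SB against 2717, 2743 and 2618 in Ut. Mthfd2, of mitochondrial folate metabolism, was at 1156, 487 and 957 in SB against 788, 407 and 430.2 in Ut (0.65). Chac1, a glutathione-degrading enzyme, was highest in the list (0.85) at 227, 69.2 and 231 in SB against 144, 55.8 and 75.2 in Ut, and Ddit4, an mTORC1 inhibitor, lowest (-0.54).

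Genes of DNA replication ran higher in SB, and most in SB 81. All 26 E2F targets were tested and all 26 had a positive log2 fold change, with a median of 0.49, and of 0.26 without SB 81 or with library cluster as covariate. By library the median was 0.11, 0.21, 0.25 and 0.99. Mcm7 and Mcm6, subunits of the replicative helicase and the most abundant members, were at 3328, 3073 and 5648 (Mcm7) in SB against 3276, 2647 and 2424 in Ut, and at 3716, 3046 and 4366 (Mcm6) in SB against 3768, 2881 and 2574 in Ut. Mcm2 was highest (0.70, SE 0.45) and Pola1, a DNA polymerase subunit, lowest (0.06). SB lay above all Ut values for 1 of the 26 genes, a share near the 3.33% of all genes tested. Genes of ribosome biogenesis had a median of 0.40 over 22 genes, with 21 positive, and those of the mitotic spindle and G2/M a median of 0.24 over 25 genes, with 21 positive. By library these medians were 0.10, 0.08, 0.17 and 0.78 for ribosome biogenesis and -0.05, 0.15, 0.03 and 0.55 for the mitotic genes. The median of ribosome biogenesis was 0.17 without SB 81, 0.67 without SB 5 and 0.61 without Ut 1. That of the mitotic genes was 0.10 without SB 81, 0.09 without Ut 2, 0.44 without SB 5 and 0.41 without Ut 1.

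**Figure D4:**
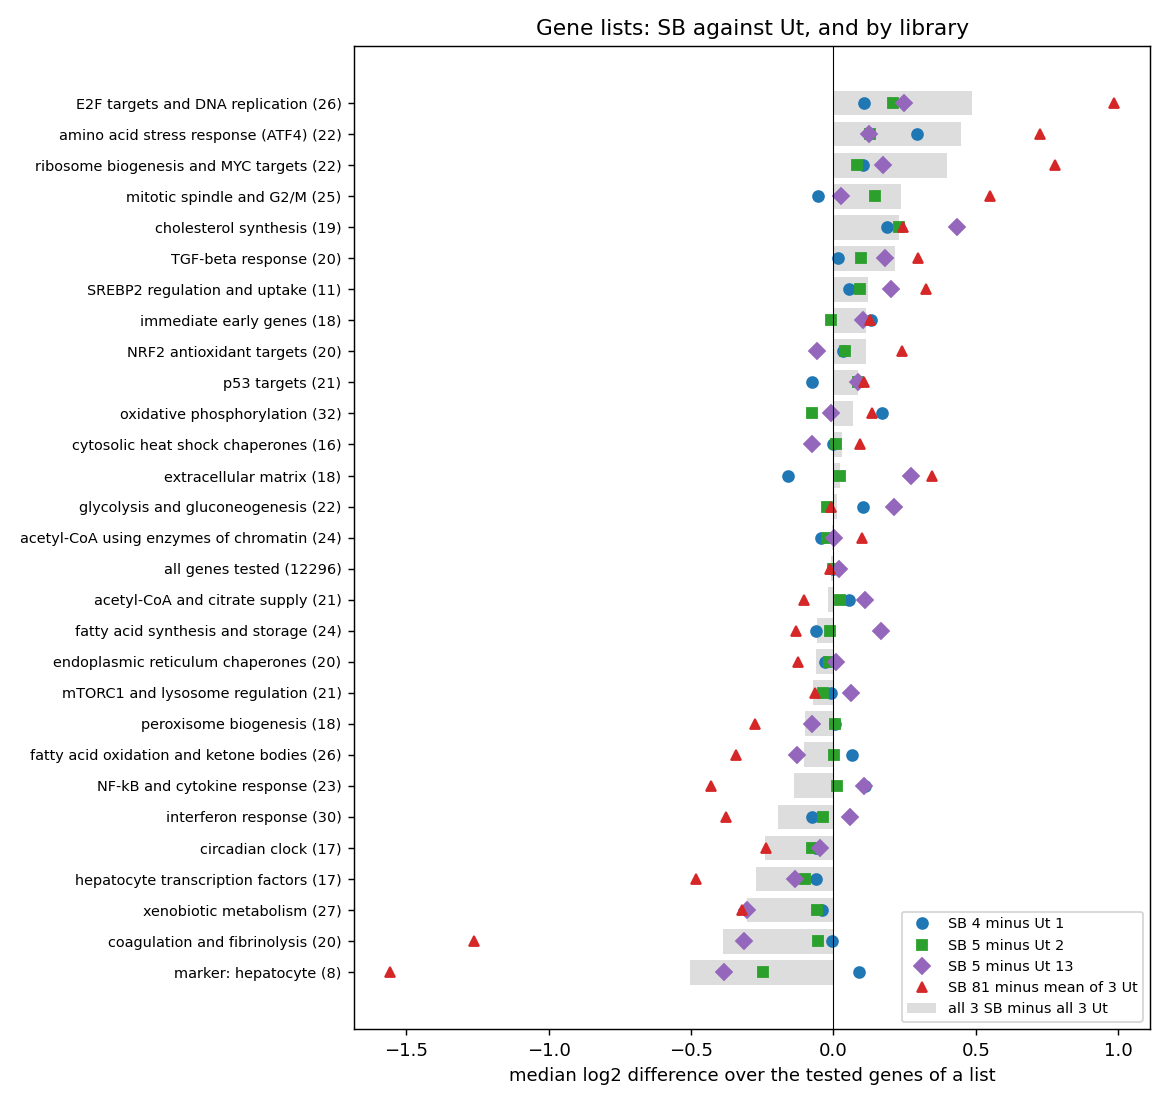
Median log2 difference over the tested genes of each list (number of genes in parentheses), for all SB minus all Ut libraries (grey bars) and for 4 differences between libraries (points). SB 81 (red triangles) lies farthest from 0 for E2F targets (0.99) and hepatocyte markers (-1.56), and cholesterol synthesis is at 0.19 to 0.43 in all 4.

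Interferon response genes ran slightly lower. All 30 were tested and 23 had a negative log2 fold change, with a median of -0.20, and by library the median was -0.08, -0.04, 0.06 and -0.38. It was -0.09 without SB 81, -0.08 without SB 4, -0.06 without Ut 2 and -0.32 without SB 5. SB lay below all Ut values for 6 of the 30 (2.53% of all genes tested), among them Ifit1, at 41.7, 40.8 and 9.63 in SB against 55.9, 42.9 and 77.2 in Ut, and, named after their values were seen, Irf7, the factor that amplifies the response, at 57.8, 70.1 and 57.2 in SB against 77.9, 104.2 and 92.5 in Ut (-0.56), and Ifi27, at 18.4, 21.5 and 28.0 in SB against 30.7, 40.7 and 37.2 in Ut (-0.67). The abundant members of antigen presentation overlapped between the groups, H2-D1 at 5246, 6343 and 6535 in SB against 5137, 6320 and 6060 in Ut (0.05) and B2m at 6436, 4275 and 5604 in SB against 6270, 4001 and 5082 in Ut (0.09). H2-D1 is one of several similar genes that can share reads. Rsad2 was highest (2.05), at 8.72, 4.935 and 12.2 in SB against 9.77, 0 and 0 in Ut.

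Clock genes held 3 of the 70 genes with an unadjusted p below 0.05 (0.569% of all genes tested). Of 18 genes 17 were tested, 5 positive and 12 negative, with a median of -0.24. It was -0.15 without SB 4, -0.15 without Ut 2, -0.08 without SB 81 and Ut 13, and -0.18 with library cluster as covariate. By library the median was -0.06, -0.07, -0.05 and -0.24. Npas2 is given above. Bhlhe40, a repressor of clock genes, was at 1442, 1514 and 1813 in SB 4, 5 and 81 against 1271, 1221 and 801 in Ut 1, 2 and 13, a mean of 1590 ± 197 in SB and 1097 ± 258 in Ut (SD, n = 3 each). SB lay above Ut without overlap, and the log2 fold change was 0.56 (SE 0.22). Cry2, a repressor named after its values were seen, was at 193, 263 and 233 in SB against 239, 316 and 338 in Ut (-0.37, SE 0.17), where the groups overlapped but all 4 library differences lay between -0.36 and -0.26. Per1, the other most abundant member, was at 571, 911.5 and 993 in SB against 653, 1053 and 852 in Ut (-0.06).

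Genes of xenobiotic metabolism had a median of -0.30 over 27 of 30 genes, with 6 positive and 21 negative. The median was -0.15 without SB 81, -0.06 without SB 81 and Ut 13, and -0.19 with library cluster as covariate. By library it was -0.04, -0.06, -0.30 and -0.32. Gstp1, at 13895, 11023 and 12241 in SB against 12611, 11463 and 14385 in Ut, and Gstm1, at 8321, 7918 and 3557 in SB against 7699, 9006 and 9280 in Ut, were the most abundant, and both have similar copies that can share reads. The list ran from Cyp1a2 (-1.85, SE 1.59) to Gsta1 (0.56, SE 0.84), and 0 genes had groups without overlap.

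Whether the SB effect depended on Acly was asked by comparing it with that in siAcly cells, as an interaction in the same fit. Of 12296 genes, 0 (0%) had an adjusted p below 0.05, with a smallest adjusted p of 0.56. An unadjusted p below 0.05 was found for 1038 (8.44%), above the 615 expected by chance. The ATF4 list had a median of 0.45 in siC cells and -0.27 in siAcly cells, and the cholesterol list one of 0.23 in siC cells and 0.26 in siAcly cells. Other lists differed as well, with coagulation and fibrinolysis at -0.39 in siC and 0.74 in siAcly cells. Mitotic genes were at 0.24 and 0.76, and E2F targets at 0.49 and 0.38. No list was tested for this difference. The clusters are not balanced in either cell type. In siAcly cells, SB has 1 library in each cluster and Ut has none in the first. Treatment and cluster are therefore partly confounded in these medians. The library siAcly Ut 15 also lay apart, with r 0.952 to its nearest library, against 0.983 to 0.990 for the other AML12 libraries. Its weight in the siAcly medians was not tested. SB was also set against hydroxycitrate (HC), a citrate-site inhibitor of the enzyme used at 1000 µM, in siC cells, a comparison in which both groups have 1 library in each of the 3 clusters. The doses differ, so the difference is not one at matched dose. Of 12296 genes 0 (0%) had an adjusted p below 0.05 and 27 (0.22%) an unadjusted p below 0.05. As for SB against Ut, that is below the 615 expected by chance. Acly differed by 0.02, and the median difference was 0.15 for cholesterol synthesis, 0.15 for the ATF4 list and 0.12 for E2F targets, against 0.01 over all genes.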

How the data were processed

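RNA-seq of AML12 cells was used. The authors prepared stranded mRNA libraries, sequenced them on an Illumina NovaSeq, aligned reads to mm10 with an Illumina application built on STAR, and scaled the counts of each gene by median-of-ratios size factors. The deposited signal values are these scaled values, not raw counts, and whole reads could not be recovered from them. Columns were mapped to samples by library number.

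Values were taken to log2 after adding 1, which lowers fold changes of genes with low values. Genes reaching 10 in 3 or more of the 24 libraries were tested (12296 of 24972) with limma 3.58.1 in R 4.3.3, with all 8 AML12 groups in 1 fit and 16 residual degrees of freedom, moderated with a trend and adjusted by Benjamini-Hochberg at 0.05. The test was tried on simulated data without library clusters, so that trial does not show how it behaves on these clustered libraries. Members, lists and tests were chosen with earlier results of these data known, and lists are described by counts and medians.

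Genes were named by a rule: Acly, genes at the study's threshold, the 10 highest and 10 lowest among genes without overlap and with a mean of at least 50 in 1 group, and in each list described the 2 most abundant members and the highest and lowest. Others are stated to be named after their values were seen. Positions are those of GENCODE on GRCm38. Alternatives were no limit on low values, the 2 groups alone, other pseudocounts and normalizations, library weights, library number series as covariate and leaving out libraries. Library cluster as covariate and leaving out SB 81 with Ut 13 were added after the data were seen. Some genes that the rule names are not reported here. Files of other tissues were not used here.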

Additional observations from a re-analysis of the deposited data

How the results depend on the processing

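The count of genes with an adjusted p below 0.05 was 0 under every alternative run but no limit on low values, where it was 1 of 17501 genes, Lrfn5, at 0 in all SB libraries and 0.853 to 1.49 in Ut, near 1 read. The count at the study's threshold, 20 in the fit reported, was 111 with no limit on low values, 31 with the 2 groups alone, 7 with a pseudocount of 5, 402 with library weights (whose estimate did not converge) and 10 without SB 81 and Ut 13. Leaving out 1 SB or Ut library at a time it ranged over 9 to 115, and the cause was not tested. With siC Bemp 11 left out of the fit the count was 22. The median of cholesterol synthesis was 0.41 with library cluster as covariate and 0.17 to 0.30 leaving out 1 library at a time, and that of the ATF4 list 0.22 to 0.68. The interaction and the SB against HC comparison stayed at 0 genes in each alternative run for them. No paired analysis was possible because the labels give the AML12 libraries numbers that no groups share. Clusters found in the data served as a covariate instead, with 0 genes at an adjusted p below 0.05 and 23 at the study's threshold.

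Of 93 named genes, 16 changed sign at least once, in 56 of 1581 values, all near 0 or with wide errors and none with an adjusted p below 0.05. The log2 fold changes with the opposite sign were, with quantile normalization, Fasn at -0.069, H2-D1 at -0.046, B2m at -0.014. They were, with the library number series as covariate, Me1 at 0.090, Tm7sf2 at 0.083, Scap at -0.086, Fasn at -0.089, Fabp1 at 0.52, H2-D1 at -0.043, Trf at 0.13, Alb at 0.033. They were, with library weights, Me1 at 0.035, H2-D1 at -0.0075. They were, with library cluster as covariate, Acly at 0.072, Me1 at 0.11, Pdk1 at 0.080, Tm7sf2 at 0.26, Scap at -0.057, Scd2 at 0.19, Pola1 at -0.0025, H2-D1 at -0.034, B2m at -0.019, Gsta1 at -0.040. They were, without SB 81 and Ut 13, Me1 at 0.053, Tm7sf2 at 0.066, Scap at -0.11, Fasn at -0.12, Fabp1 at 0.044, Gstp1 at 0.042, Gsta1 at -0.11, Trf at 0.053. Leaving out 1 library at a time, the ranges were Acly -0.18 to 0.12, B2m -0.074 to 0.25, Fabp1 -2.84 to 0.25, Fasn -0.26 to 0.40, Gstp1 -0.14 to 0.036, H2-D1 -0.041 to 0.15, Me1 -0.11 to 0.082, Per1 -0.24 to 0.18, Pola1 -0.19 to 0.30, Scap -0.088 to 0.24, Scd2 -0.52 to 0.0046, Tm7sf2 -0.38 to 0.044, Trf -0.60 to 0.12. The cause was not tested.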

Other observations

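Genes of coagulation and fibrinolysis, made largely by hepatocytes, had a median log2 fold change of -0.39 over 20 tested genes, with 13 negative. SB 81 minus the mean of Ut gave -1.26, SB 4 minus Ut 1 gave -0.0032, SB 5 minus Ut 2 gave -0.05 and SB 5 minus Ut 13 gave -0.31. Leaving out 1 library turned its direction without SB 81 (0.05) and without Ut 1 (0.14), and it was -1.07 without SB 4, -0.20 without SB 5, -0.73 without Ut 2 and -0.63 without Ut 13. Hepatocyte transcription factors had a median of -0.27 over 17 genes (-0.10 without SB 81). TGF-beta response genes had a median of 0.22 over 20 genes, with 16 positive (0.10 without SB 81 and 0.12 without Ut 13). That median was 0.04 without SB 81 and Ut 13 together, and 0.05 with library cluster as covariate. By library it was 0.02, 0.10, 0.18 and 0.30. Fatty acid oxidation and ketone body genes had a median of -0.10 over 26 genes, with 21 negative, which leaving out 1 library moved to between -0.18 (without SB 4) and -0.03 (without SB 81).

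The other lists had medians between -0.14 and 0.12, and each of these turned its sign or moved by over 1.5 times when some 1 library was left out. NF-kB and cytokine response was at -0.14 (0.04 without SB 81) and p53 targets at 0.09 (-0.05 without SB 4). NRF2 targets (0.11), immediate early genes (0.12), oxidative phosphorylation (0.07), cytosolic chaperones (0.03), extracellular matrix (0.02), glycolysis and gluconeogenesis (0.01), chromatin enzymes that use acetyl-CoA (-0.01), endoplasmic reticulum chaperones (-0.06), mTORC1 and lysosome regulation (-0.07) and peroxisome biogenesis (-0.10) were the others.

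With library cluster as covariate, Cyr61, a matrix protein induced by YAP, had an unadjusted p of 0.00155 and a log2 fold change of 0.58 (limma). That was the smallest p of the 12296 genes in that fit, where 0 genes had an adjusted p below 0.05. In the main fit, Cyr61 had a log2 fold change of 0.98 and an unadjusted p of 0.0598 (limma). It was named after its values were seen and was at 1736, 745 and 1723 in SB, against 1199, 576 and 421 in Ut, where the groups overlapped.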
